A study of Homo sapiens with 4 samples.

Results

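The miR-130 and miR-148 families were examined in U-251 cells under basal conditions. Their members were chosen by name, as every row of the miRNA sequencing (miR-seq) table called miR-130a, miR-130b, miR-301a, miR-301b, miR-454, miR-148a, miR-148b or miR-152 with any arm suffix. This gave 8 of the 746 names listed, 5 in the miR-130 family, which includes miR-301a, miR-301b and miR-454, and 3 in the miR-148 family, which includes miR-152. U-251 (U251 in the sample labels) is an established human glioma cell line grown in DMEM with serum. The data comprised 4 biological replicates of non-irradiated wild-type cells, which formed 1 group, so no comparison between conditions was possible. All 4 samples carry the label of the vehicle DMSO, whereas the methods of the study name no vehicle. The labels also describe mRNA capture, whereas the methods name a miRNA library kit.

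A miRNA is cut from a hairpin precursor whose 5p and 3p arms can each give a mature strand. The strand loaded onto an Argonaute protein such as AGO2 pairs with target mRNAs mainly through its seed, the bases from position 2 to 8. Both families are defined by the seed of the 3p strand. miR-130a and its relatives are known to repress PPARG, a nuclear receptor of fat and vessel cells. miR-148a, miR-148b and miR-152 are known to repress DNMT1, the maintenance DNA methyltransferase.

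The mature 3p strands are shown because they carry the seeds that name the families. They were taken from RefSeq (build GRCh38.p14), run from 5′ to 3′, and have the seed in capitals.
miR-130b-3p: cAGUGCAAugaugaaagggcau
miR-301a-3p: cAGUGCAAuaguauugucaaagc
miR-301b-3p: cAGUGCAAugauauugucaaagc
miR-454-3p: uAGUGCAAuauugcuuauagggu
miR-148a-3p: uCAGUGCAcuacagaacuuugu
miR-148b-3p: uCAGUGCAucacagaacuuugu
miR-152-3p: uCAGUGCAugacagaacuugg
The seed was AGUGCAA in all 4 listed strands of the first family and CAGUGCA in all 3 of the second. The run AGUGCA, 6 bases long, was found in all 7 strands. In 3 of the 4 strands of the first family the letters CAGUGCA were also present, but from position 1, and miR-454-3p lacked them. The closest 3p pairs were miR-301a-3p with miR-301b-3p and miR-148a-3p with miR-148b-3p, each separated by 2 single-base edits.

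All 8 rows of the sequencing table were named for the 5p arm, and no row of the 3p arm was listed for any member. The 5p strands are shown because their names are those the counts stand under, again with the seed in capitals.
miR-130a-5p: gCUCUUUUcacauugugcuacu
miR-130b-5p: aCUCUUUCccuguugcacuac
miR-301a-5p: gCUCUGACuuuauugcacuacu
miR-454-5p: aCCCUAUCaauauugucucugc
miR-148b-5p: aAGUUCUGuuauacacucaggc
miR-152-5p: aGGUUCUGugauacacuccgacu
These 6 strands had 6 distinct seeds, so the shared seeds of the families do not apply to the 5p names. RefSeq entries were matched for 13 of the 16 arms, and miR-130a-3p, miR-148a-5p and miR-301b-5p were the others. Over all rows, 538 names were of the 5p arm and 18 of the 3p arm. The arm that gave the reads under a 5p name was not tested. The table offers only indirect values on it. Both miR-19b hairpins give the same 3p strand, while miR-19b-1-5p and miR-19b-2-5p are 4 edits apart, and the ratio of their counts lay between 0.986 and 0.999 over the 4 libraries. For miR-29b-1-5p and miR-29b-2-5p, also 4 edits apart and with a common 3p strand, the ratio lay between 1.20 and 1.28. Their log2 ratios of replicate 1 to the mean of the others were 0.341 and 0.345. Such ratios were -0.533 and -0.534 for miR-92a-1-5p and miR-92a-2-5p, and -0.0653 and -0.0659 for miR-103a-1-5p and miR-103a-2-5p. For miR-101-5p and miR-101-2-5p they were 0.296 and 0.294, but for miR-376a-5p and miR-376a-2-5p 0.058 and 0.010. The 3p strands of these further pairs were not compared. The levels below are therefore those of a table name, and were not assigned to the seeds AGUGCAA and CAGUGCA.

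The 8 hairpin genes lie on 5 chromosomes in the GENCODE annotation of GRCh38. MIR301B (chr22:21652981-21653058, plus strand) and MIR130B (chr22:21653304-21653385, plus strand) are 245 bases apart. The former lies in an intron, and the latter overlaps an exon, of the same long non-coding gene, ENSG00000207751. MIR301A (chr17:59151136-59151221) and MIR454 (chr17:59137758-59137872) are separated by 13263 bases and both lie on the minus strand in introns of SKA2, a gene for a spindle and kinetochore protein. In the miR-148 family, MIR148B (chr12:54337216-54337314, plus strand) lies in an intron of COPZ1, and MIR152 (chr17:48037161-48037247, minus strand) in an intron of COPZ2, both of which encode zeta subunits of the vesicle coat COPI. MIR148A (chr7:25949919-25949986, minus strand) and MIR130A (chr11:57641198-57641286, plus strand) lie in introns of long non-coding genes, that of MIR130A being MIR130AHG. All 8 names held whole counts, whereas 40 names of the table did not.

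Total counts lay between 12363104 and 13214969 per library, and each level is given as a percentage of that total. Cells without a value were blank in the table and no cell held 0. Of the 746 names, 280 had at least 10 counts in every library, and 7 of the 8 members were among them. The exception was miR-130b-5p. Among miRNAs listed as markers, miR-21-5p, miR-9-5p and miR-125b-5p were the 3 listed as glial or glioma-associated. All 3 were found, with a summed share of 6.82% to 11.3%. Of the neuronal markers 2 of 3 were found (0.172% to 0.261%), miR-128-1-5p with a mean of 0.202% and miR-129-5p with 0.00101%. The neuronal miR-124-5p and the erythroid miR-451a had no value in any library. Blood markers held 0.0122% to 0.0218% with 4 of 6 found, mainly miR-486-5p (mean 0.0178%). Of the others, miR-150-5p had 79, miR-144-5p 6 and miR-142-5p 3 counts over all libraries. The liver marker held 0.00101% to 0.00358%, and muscle markers 4.85e-05% to 0.000391% with 2 of 3 found. The part of other cell types in the levels below was not tested.

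In the miR-148 family, miR-148b-5p was the most abundant name. Its counts were 15331, 16826, 20087 and 16038 in replicates 1 to 4, or 0.134% ± 0.0188 (SD, n = 4) of the library. Replicate 3 was the high library and the other replicates lay close together, between 0.122% and 0.127%. In replicate 3 the 95% Wilson interval ran from 0.160% to 0.165%, which covers counting error only, as do all such intervals here. miR-152-5p had 10446, 8676, 7700 and 7875 counts, or 0.0682% ± 0.0102 (SD, n = 4). For this name replicate 1 was the highest, at 0.0833%, and replicates 2 to 4 lay between 0.0618% and 0.0657%. miR-148a-5p had 5446, 3234, 3225 and 2549 counts, or 0.0285% ± 0.0103 (SD, n = 4), again with replicate 1 the highest. Its share in replicate 1 was 2.17 times that in replicate 4. Together the 3 names held 0.231% ± 0.0220 (SD, n = 4) of the counts, and miR-148b-5p made up 58.3% ± 6.63 (SD, n = 4) of the sum. Its part was lowest in replicate 1, with 49.1%, where that of miR-148a-5p was highest, with 17.4%. The sum varied less between libraries than any single name, with a coefficient of variation of 9.50%, against 14.0% for miR-148b-5p, 14.9% for miR-152-5p and 36.1% for miR-148a-5p.

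**Figure D1:**
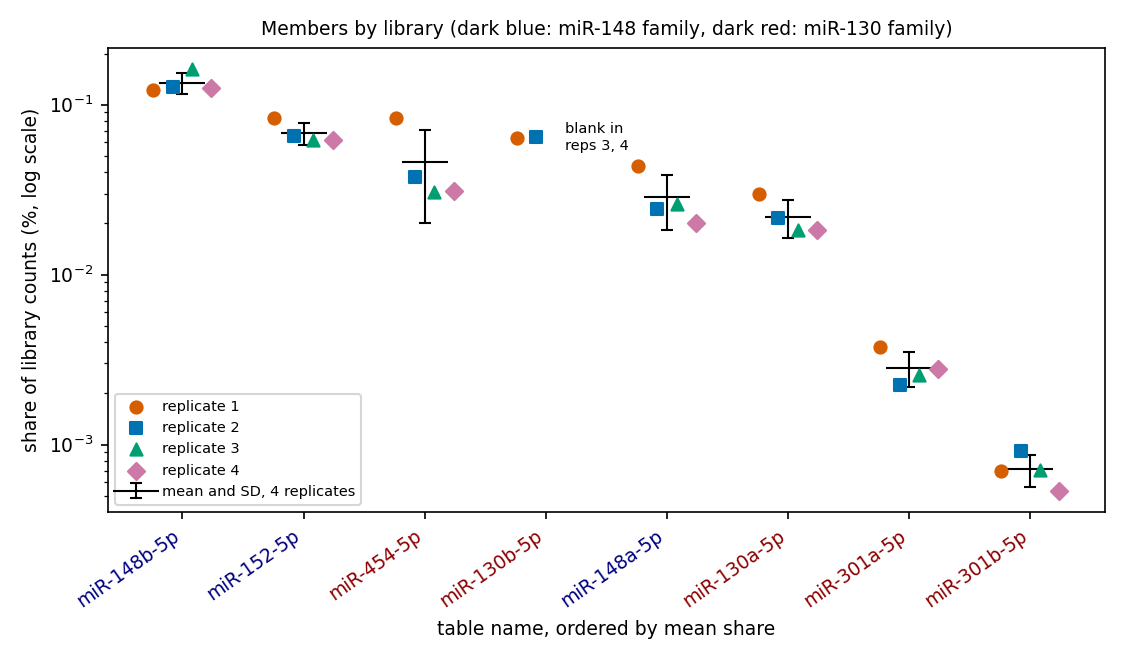
Share of library counts (percent, log scale) of each of the 8 names in the 4 replicates, with the mean and SD of names listed in all libraries. Names are ordered by mean share with blanks counted as 0, miR-148b-5p leads with 0.134%, and miR-130b-5p has values in replicates 1 and 2 alone.

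In the miR-130 family, miR-454-5p had the highest mean share among the names listed in every library. It had 10519 counts in replicate 1 but 4939, 3799 and 3961 in replicates 2 to 4, so that replicate 1 stood well above the others. The mean share was 0.0458% ± 0.0256 (SD, n = 4), and without replicate 1 it was 0.0331%. miR-130a-5p had 3751, 2833, 2256 and 2326 counts, or 0.0220% ± 0.00551 (SD, n = 4), with the same high library but a smaller gap. The remaining names were rare. miR-301a-5p had 470, 295, 318 and 357 counts, or 0.00284% ± 0.000649 (SD, n = 4). miR-301b-5p was the least abundant member with 88, 121, 88 and 68 counts, or 0.000716% ± 0.000156 (SD, n = 4), and was highest in replicate 2. In replicate 4 its 95% Wilson interval ran from 0.000421% to 0.000676%, and in replicate 2 from 0.000766% to 0.00109%, so these libraries differed beyond counting error.

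miR-130b-5p was listed with 8032 counts in replicate 1 and 8563 in replicate 2, and its cells were blank in replicates 3 and 4. Its shares in the listed libraries, 0.0640% and 0.0648%, were nearly level. In these libraries it ranked 73 and 72 among all names, above miR-148a-5p and miR-130a-5p. The total counts were 12542899, 13214969, 12363104 and 12749702 in replicates 1 to 4, and the lowest counts listed for any name were 2 in replicate 3 and 4 in replicate 4. With a count of 0, up to 3 counts are possible, or 2.43e-05% of the shallowest library. Blanks of abundant names were not particular to this miRNA. In all, 12 names had at least 1000 counts in 1 library and a blank in another, among them miR-182-5p with 214667 counts in replicate 1 and no value elsewhere. Of the 11 names listed in replicates 3 and 4 but not in 1 and 2, the highest count was 187. What the blanks stand for was not tested, and no fold change between libraries is given for this name. Counted as 0, they set its mean share at 0.0322% ± 0.0372 (SD, n = 4). With blanks left out the mean was 0.0644% (n = 2).

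Without miR-130b-5p, the other 4 names of the miR-130 family held 0.118% of the counts in replicate 1 and 0.0620%, 0.0523% and 0.0526% in replicates 2 to 4. The mean was 0.0713% ± 0.0316 (SD, n = 4). miR-454-5p made up 70.9% of this sum in replicate 1 and 58.8% to 60.3% in the others, and miR-130a-5p made up 25.3% in replicate 1 and 34.6% to 34.9% in the others. With miR-130b-5p included and blanks as 0 the sum was 0.103% ± 0.0631 (SD, n = 4).

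**Figure D2:**
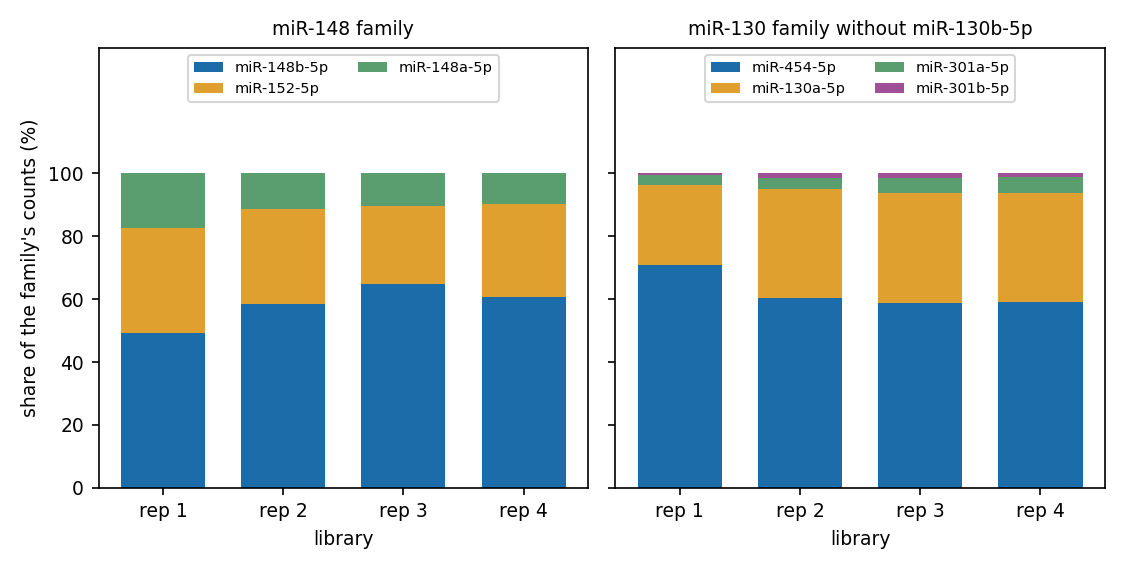
Makeup of each family in each library, as the percentage of the family's counts held by each name, with miR-130b-5p left out because of its blanks. miR-148b-5p takes 49.1% of its family in replicate 1 and more in the other libraries, and miR-454-5p takes 70.9% in replicate 1 and less in the others.

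The order of the members was compared within each library, where ratios do not depend on the depth. Of the 7 pairs of neighbours in the order of mean share, 4 had the same order in all 4 libraries. Of the 6 pairs left without miR-130b-5p it was 5. Over all 21 pairs of the 7 names listed in every library, 20 had a fixed order, and among all pairs of the 280 miRNAs that met the count minimum the share was 91.9%, so a fixed order was common. miR-148b-5p exceeded miR-152-5p by 1.47 to 2.61 times, and the log2 ratio was 0.98 ± 0.34 (SD, n = 4). By an exact permutation of signs, two-sided, this gave p = 0.13, the lowest value 4 libraries can reach, and 0.22 after adjustment over the 7 pairs. miR-152-5p exceeded miR-454-5p in 3 of 4 libraries and was level with it in replicate 1, for a log2 ratio of 0.70 ± 0.48 (SD, n = 4, exact test as before, p = 0.25, adjusted 0.35). Their order was thus not the same in every library. miR-148a-5p exceeded miR-130a-5p in 4 of 4 libraries, though the log2 ratio was only 0.34 ± 0.21 (SD, n = 4, exact test, p = 0.13, adjusted 0.22). The large step was from miR-130a-5p to miR-301a-5p, where the log2 ratio was 2.95 ± 0.24 (SD, n = 4, exact test, p = 0.13, adjusted 0.22). miR-301a-5p exceeded its near relative miR-301b-5p by 2.44 to 5.34 times. The place of miR-130b-5p depended on its blanks. Counted as 0, they put it between miR-454-5p and miR-148a-5p, with mean log2 ratios of 6.36 and -5.75 for the higher over the lower name of each pair (exact tests, p = 0.38 and 0.5, adjusted 0.44 and 0.5). In the listed libraries alone the same ratios were -0.20 and 0.98.

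The miR-148 family sum was above the miR-130 family sum in all 4 libraries. With every name counted and blanks as 0, the log2 ratio of the latter to the former was -0.45, -0.78, -2.26 and -1.98 in replicates 1 to 4, a mean of -1.37 ± 0.89 (SD, exact sign-flip test, two-sided, p = 0.13, the smallest possible). Without miR-130b-5p the mean was -1.78 with an SD of 0.51, which is a 3.44-fold excess of the miR-148 family sum (exact test, p = 0.13).

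Names from neighbouring hairpins were unequal. In the cluster on chromosome 22, the counts of miR-130b-5p were 91.3 times those of miR-301b-5p in replicate 1 and 70.8 times in replicate 2. Since 2 libraries cannot give a p below 0.5, this ratio was not judged by a test. With blanks as 0 its mean log2 ratio was -0.48 with an SD of 7.86 (exact sign-flip test, p = 0.75), a value that the blanks set. In the SKA2 introns, miR-454-5p exceeded miR-301a-5p by 22.4, 16.7, 11.9 and 11.1 times in replicates 1 to 4. The mean log2 ratio was 3.90 with an SD of 0.47 (exact sign-flip test, p = 0.13, adjusted 0.25 over both clusters). Levels of different miRNAs also depend on how efficiently each strand is ligated and copied into the library, which was not tested.

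**Figure D3:**
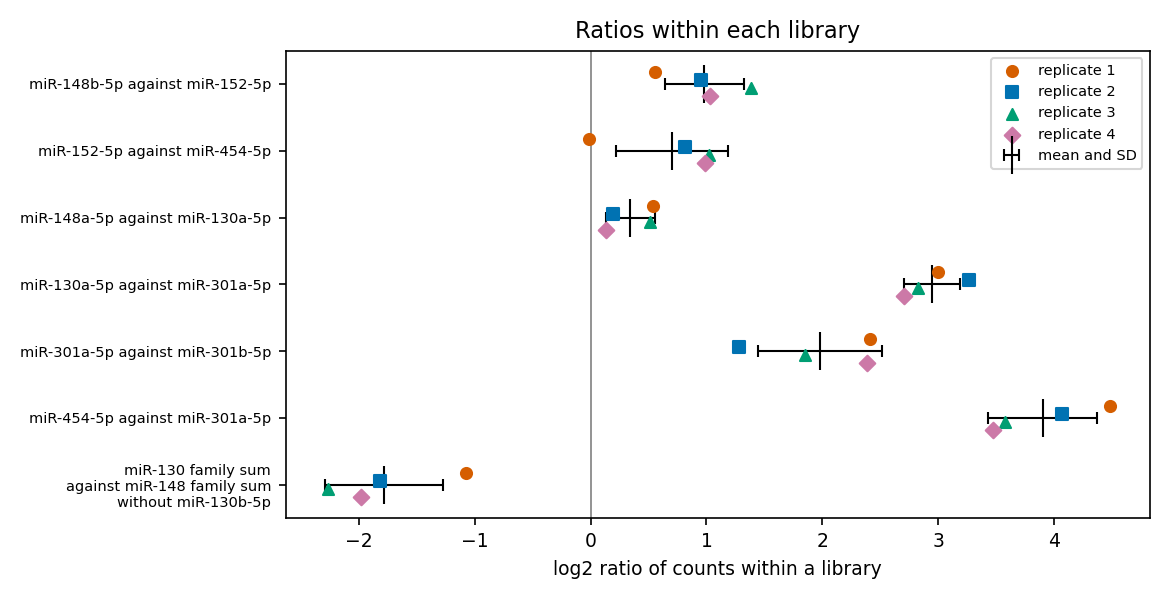
Log2 ratio of counts within each library (x axis) for pairs of names and for the family sums, with points for the 4 replicates and bars for the mean and SD. miR-152-5p and miR-454-5p are level in replicate 1 alone, and the family sums are separated in every library.

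Among the 7 names listed in every library, the most constant ratios were not those within a family or within the SKA2 introns. The cluster of MIR301B and MIR130B is not covered, because of the blanks of miR-130b-5p. Among the 21 pairs of names, the SD of the log2 ratio was lowest for miR-152-5p with miR-130a-5p, at 0.14, and for miR-152-5p with miR-301a-5p, at 0.19, both pairs across families. It was highest for miR-148b-5p with miR-454-5p, at 0.80, also a pair across families. The value for miR-454-5p with miR-301a-5p from the same host gene was 0.47, against a median of 0.36 over the 21 pairs and of 0.44 over all pairs of the 280 miRNAs. As descriptions of 4 libraries these values carry no test.

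The spread between libraries differed among the members. The coefficient of variation was 55.9% for miR-454-5p and 25.1%, 22.9% and 21.9% for miR-130a-5p, miR-301a-5p and miR-301b-5p. Over the 7 names the median was 22.9%, against 20.1% over the 280 miRNAs, whose quartiles were 13.5% and 31.2%. By edgeR, the biological coefficient of variation was 34.8% for miR-454-5p, 18.8% for miR-148b-5p and 23.3% at the median of all miRNAs. Much of the spread involved 1 library. Without replicate 1, the median coefficient was 11.3% for the members and 14.4% for the 280 miRNAs, and that of miR-454-5p was also 11.3%. That of the miR-130 family sum without miR-130b-5p fell from 44.4% to 9.87%. For miR-148b-5p the high library was replicate 3, without which its coefficient was 2.09%. Leaving out the extreme library of a name in itself favours a lower coefficient. This also holds for replicate 1 with miR-454-5p and with the miR-130 family sum.

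Replicate 1 held the highest share for 5 of the 7 names, namely miR-152-5p, miR-454-5p, miR-148a-5p, miR-130a-5p and miR-301a-5p, whereas it did so for 33.6% of the 280 miRNAs. The log2 ratio of replicate 1 to the mean of the others was 1.34 for miR-454-5p, 0.88 for miR-148a-5p, 0.63 for miR-130a-5p, 0.56 for miR-301a-5p and 0.40 for miR-152-5p. These same 5 of the 7 names lay above the upper quartile of the 280 miRNAs, 0.34. Being highest in replicate 1 itself favours a high ratio, so the 2 counts are not separate results. The log2 ratio was -0.04 for miR-301b-5p and -0.18 for miR-148b-5p. The median was 0.56 for the members and -0.07 for all. The ratio thus took both signs within each family. In the miR-130 family the only negative value was that of miR-301b-5p, which had 88 counts in replicate 1. This value of -0.04 lay above the median of all miRNAs.

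Dixon's ratio, the gap between an extreme library and its nearest neighbour divided by the range, passed its 95% critical value for 2 of the 7 names, against 11.1% of the 280 miRNAs. It was 0.875 for miR-454-5p, high in replicate 1, and 0.873 for miR-148b-5p, high in replicate 3. Neither call held on every scale. For miR-148b-5p the ratio was no longer past the critical value with upper-quartile factors (0.633), TMM factors (0.644) or DESeq2 size factors (0.602). With log2 shares it stayed past it (0.856). For miR-454-5p the ratio stayed past it with all of these factors (0.879, 0.893 and 0.890), but not with log2 shares (0.805). miR-148a-5p passed it with TMM factors (0.831) and DESeq2 size factors (0.845).

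Across the table, the GC content of the hairpin was inversely related to the excess in replicate 1. Hairpins of lower GC content thus tended to have the higher ratio. Over 239 of the 280 miRNAs with a RefSeq hairpin, Pearson's r was -0.371 and Spearman's rho -0.343. These points share their libraries and are not independent. For the 6 members with an entry, r was -0.286 and rho -0.371. The hairpin of miR-454 had a GC content of 39.1% and that of miR-152 63.2%. The GC content was 43.4% for MIR148B and 45.6% for MIR148A. The part of GC content in these levels was not tested.

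**Figure D4:**
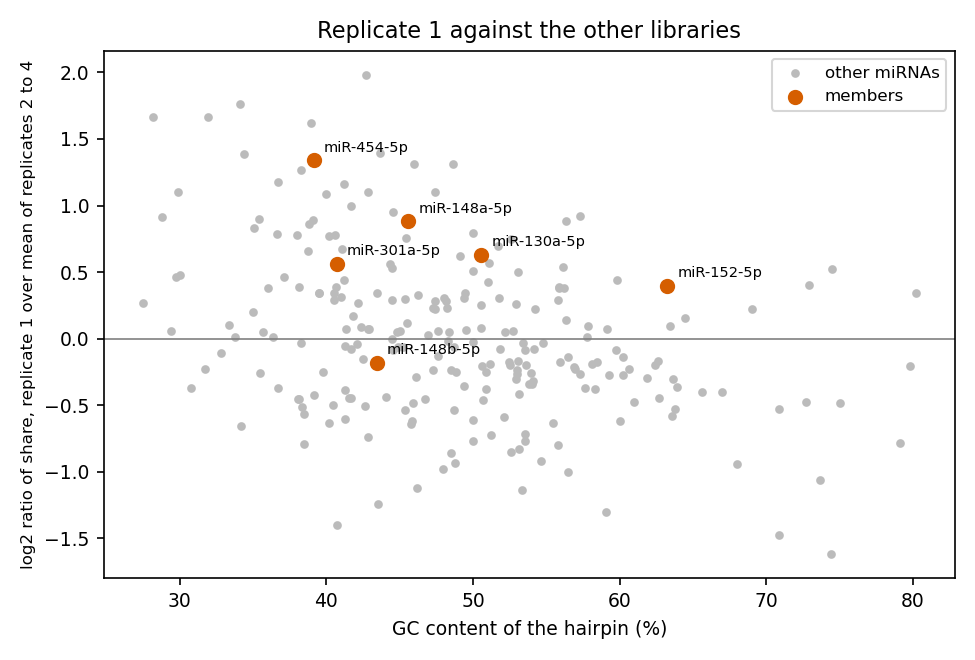
Log2 ratio of the share in replicate 1 to the mean share in replicates 2 to 4 (y axis) against hairpin GC content in percent (x axis) for miRNAs that met the minimum of 10 counts per library. The 6 members with a hairpin entry are in orange, 5 of them above 0, with miR-454-5p the highest at 1.34 and miR-148b-5p below 0.

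Other families of several hairpins were summed over their 5p names for comparison. The miR-30 family, abundant in many tissues, held 1.52% ± 0.0735 and the miR-29 family, known to repress collagen genes, held 0.535% ± 0.0509 (SD, n = 4). The miR-148 family sum lay below both in 4 of 4 libraries, with mean log2 ratios of -2.72 (SD 0.15) and -1.21 (SD 0.09). The miR-130 family sum with blanks as 0 also lay below both, with -4.09 (SD 0.93) and -2.58 (SD 0.96). The miR-19 family was included because the seed of miR-19b-3p (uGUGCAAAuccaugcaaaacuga) shares letters with that of miR-130b-3p. It held 0.0480% ± 0.0286 (SD, n = 4), less than either sum in 4 of 4 libraries. This sum holds both miR-19b-1-5p and miR-19b-2-5p, whose counts were nearly equal, and with miR-19b counted once it was 0.0255% ± 0.0156 (SD, n = 4). The mean log2 ratio to it was 2.42 (SD 0.66) for the miR-148 family sum and 1.05 (SD 0.53) for the miR-130 family sum, or 0.63 (SD 0.18) without miR-130b-5p. In the setting that counts miR-19b once, which was added after the values were seen, the mean log2 ratios were 3.33 for the miR-148 family sum and 1.96 for the miR-130 family sum with blanks as 0. The exact sign-flip test, two-sided, gave p = 0.13 for each of these 6 comparisons, before and after adjustment over the 6. miR-3666 and miR-4295, which have the miR-130 seed by name, were not among the names listed.

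The names whose profile over the 4 libraries was nearest to that of a member were found by the root mean square difference of log2 shares, each centred on its own mean. For miR-454-5p they were miR-19b-1-5p (0.050), miR-19b-2-5p (0.055) and miR-21-5p (0.065), against a median of 0.637 over all names compared. miR-21-5p, an abundant miRNA of glioma cells, also had its highest share in replicate 1, at 5.55%. The nearest to miR-148b-5p were miR-27a-5p (0.044), miR-378a-5p (0.048) and miR-3173-5p (0.049). For miR-152-5p they were miR-452-5p (0.046), miR-629-5p (0.056) and miR-27b-5p (0.057). For miR-148a-5p, miR-889-5p (0.044), miR-376c-5p (0.073) and miR-374b-5p (0.102) came nearest. Those of miR-130a-5p were miR-16-5p (0.030), miR-3164 (0.051) and miR-30e-5p (0.059). The profile of miR-301a-5p was matched less closely, by miR-643 (0.126), miR-369-5p (0.132) and miR-628-5p (0.142). miR-301b-5p was nearest to miR-4660 (0.034), miR-494-5p (0.054) and miR-138-5p (0.060). The miR-148 family sum was nearest to miR-376b-5p (0.038), miR-582-5p (0.042) and miR-196a-5p (0.045). For the miR-130 family sum, miR-542-5p (0.033), miR-10b-5p (0.048) and miR-374b-5p (0.094) were nearest without miR-130b-5p. With blanks as 0 it was matched only loosely, by miR-98-5p (0.332), miR-340-5p (0.352) and miR-10b-5p (0.392). With 4 libraries and 280 miRNAs, many names have a similar profile, and these are descriptions with no test.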

How the data were processed

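miRNA sequencing was analysed in 4 libraries of U-251 cells. According to the methods and the labels, the authors converted base calls with bcl2fastq 2.20, trimmed adaptors with Trimmomatic, discarded long reads, mapped with Bowtie to hg38 and counted with miRDeep2. The deposited values are unnormalized estimated counts per miRNA name. The annotation release was not given in the sources used here. Blanks were read as 0 counts except where stated.

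Shares, ratios (0.5 counts added), Wilson intervals at 95%, Dixon's ratio and exact sign-flip tests with Benjamini-Hochberg adjustment were obtained in Python 3.11.15 with scipy 1.17.1, numpy 2.4.6 and pandas 2.3.3. Plots were made with matplotlib 3.10.9. Counts were rounded for edgeR 4.0.16 and DESeq2 1.42.0 (R 4.3.3), which gave scaling factors and tagwise dispersions from miRNAs that reached 10 counts in each library. Steps were tested on simulated data. Chi-square per degree of freedom was 549.9 to 3442 for the 6 pairs of libraries, far above sampling noise, and each library was counted as 1 replicate. Hairpin genes came from GENCODE release 44 and mature strands from RefSeq, both on GRCh38, the build also called hg38.

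The members and lists were chosen with earlier results of these data known. The text names every member, the comparison families as sums, the marker lists and the 3 nearest non-member miRNAs. The miRNAs miR-29b, miR-92a, miR-101, miR-103a, miR-376a, miR-182-5p and the split of miR-19b were named after their values were seen.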

Additional observations from a re-analysis of the deposited data

Results flagged for a closer look

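Of 32 results checked for 1 library lying far from the remaining ones, 4 exceeded the 95% limit of Dixon's ratio. Chance gives about 1 in 20, here about 1.6, but in these libraries 11.1% of the 280 miRNAs exceeded the same limit. The results also overlap in the names they hold. The share of miR-148b-5p gave a ratio of 0.873, because replicate 3 held 0.162% while the remaining libraries held 0.122% to 0.127%. The share of miR-454-5p gave 0.875, because replicate 1 held 0.0839% while the remaining libraries held 0.0307% to 0.0374%. The miR-130 family sum without miR-130b-5p, most of which is miR-454-5p, gave 0.853 with replicate 1 the highest. The miR-19 family sum gave 0.938, since its share was 0.0908% in replicate 1 but 0.0323% to 0.0360% elsewhere. Their causes were not tested.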

How the results depend on the processing

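Of 177 recomputed values, 167 kept their direction and their side of the threshold, or moved by less than the spread between libraries. The 167 include the mean share of miR-130b-5p with blanks left out, which moved from 0.0322% to 0.0644%. That move was within an SD of 0.0372, which the blanks themselves set. They also include ratios that could not change. Values that changed direction all involved miR-130b-5p, and the reading of its blanks sets them. With only the libraries that list both names, the mean log2 ratio was -0.20 for miR-454-5p against miR-130b-5p, 0.98 for miR-130b-5p against miR-148a-5p and 6.32 for miR-130b-5p against miR-301b-5p. The last was 0.011 with 1 count added, and -2.81 to 1.85 when one replicate was left out. The median coefficient of variation of the members was 11.3% to 26.2% with one replicate left out, the lowest without replicate 1. Members past Dixon's critical value numbered 1 with upper-quartile factors and 1 with log2 shares, in place of 2. Without a filter on low counts, 195 of 621 miRNAs passed it (31.4%) in place of 31 of 280 (11.1%). Of those 621 names only 309 had a value in every library, and blanks entered this setting as 0. A name listed in 1 library alone then passes by construction, so these shares cannot be compared. How many of the 195 were of this kind was not counted.

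Settings without miR-130b-5p, with blanks left out and with miR-19b counted once were chosen after seeing the data. All member names are of 1 arm, so a setting with the most abundant arm alone is the same as the main one. The nearest names cannot change with upper-quartile factors, by construction. No paired analysis was possible because there is a single group of samples. The exact test on 4 libraries cannot give less than p = 0.13, so no order here could pass a threshold of 0.05.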
